A study of Mus musculus with 12 samples.

Results

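The genes described here make microRNAs and put them to work. They are Drosha, Dgcr8, Xpo5, Dicer1, Tarbp2, the 4 Argonaute genes Ago1, Ago2, Ago3 and Ago4, and Tnrc6a. They were chosen by name for their place in the pathway, with earlier results of these data known. All 10 were found among the 15754 genes of the count table. Their messages were followed in mouse fat cells that had received a mimic of let-7d-5p or let-7e-5p, that is, a synthetic double-stranded RNA that supplies the mature microRNA.

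RNA-seq of total RNA covered 12 libraries, with 4 libraries of cells given the let-7d mimic, 4 given the let-7e mimic and 4 given a negative control, all by reverse transfection with a lipid reagent. The series' design text states n = 6, which does not match the 4 listed libraries of each group used here. All cells were wild-type C57BL/6 cells from epididymal fat of male mice aged 8 weeks on chow, grown from the stromal vascular fraction, the mixed cells that remain once the mature fat cells are removed. In every group the cells were induced with rosiglitazone at 1 µM, insulin at 850 nM, dexamethasone at 1 µM and IBMX at 250 µM, kept with rosiglitazone and insulin, transfected at day 4 and harvested at day 7 of differentiation. Since no label tells whether replicates were cultured apart or came from different mice, the spread behind each p-value may be technical.

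In the canonical pathway a long primary transcript is cut in the nucleus by the Microprocessor, the enzyme Drosha with its RNA-binding partner Dgcr8. The hairpin is exported by Xpo5 and cut in the cytoplasm by Dicer1 with its partner Tarbp2, and a strand of the resulting duplex is loaded into an Argonaute protein. Argonaute pairs with messages through the seed of the microRNA and binds Tnrc6 (GW182) proteins, which bring in the enzymes that shorten poly(A) tails. A transfected mimic enters this pathway at Argonaute, past the cutting steps. In mice, loss of Dicer1 from fat cells is known to lower fat-cell microRNAs and to disturb white and brown fat, and in human cells let-7 is known to pair with the coding sequence of DICER1.

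Both supplied microRNAs carry the same seed, bases 2 to 8 in capitals in these mature sequences from RefSeq (22 nt each, GRCm38.p6). They are shown because the sites described further on follow from the seed.
mmu-let-7d-5p: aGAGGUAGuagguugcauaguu
mmu-let-7e-5p: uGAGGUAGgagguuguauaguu
The mature let-7d lies at chr13:48536078-48536099 on the minus strand and the mature let-7e at chr17:17830366-17830387 on the plus strand. Counting from the 5′ end, with the let-7d base first, they differ at A1U, U9G and C16U, all outside the seed.

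The deposited values are whole-number read counts per gene, from 15071299 counts (control replicate 2) to 33396316 counts (let-7e replicate 3) per library. Replicates 1 and 2 of every group carry sample identifiers of one kind and replicates 3 and 4 of another, called ID run 1 and ID run 2 here; the labels do not say what sets them apart. The runs split along the first principal component (90.6% of the variance). Most values are therefore given by run, and the main fits have a term for it. CPM are TMM-scaled counts relative to library size, and a gene was called at an edgeR quasi-likelihood adjusted p under 0.05 (Benjamini-Hochberg over all 15754 genes, two-sided). Summed over the 7 of 8 listed adipocyte markers in the table, with none at 0, the libraries reached 5205 to 7407 CPM in ID run 2 and 21279 to 23270 CPM in ID run 1. In bulk RNA, fewer cells of a type and less RNA per cell cannot be told apart.

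With the let-7d mimic, the messages of Dicer1, its partner Tarbp2 and Ago2 fell against control and that of Ago4 rose, while the other 6 were not called. That is 4 of 10 genes, beside 16.2% of all genes tested (9.84% called lower and 6.35% higher). With the let-7e mimic the same 4 genes were called in the same directions, beside 9.62% of all genes (5.85% lower and 3.77% higher). Both comparisons use the same 4 control libraries. The median log2 fold change of the 10 genes was -0.14 with let-7d and -0.03 with let-7e, against -0.0022 and -0.0019 over all genes in the same comparisons. In both comparisons the libraries of these 4 genes did not overlap with control within either run. Every mimic library lay below every control library of its run for 13.4% of all genes with let-7d and 10.4% with let-7e, and above it for 10.4% with let-7d and 8.7% with let-7e.

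**Figure D1:**
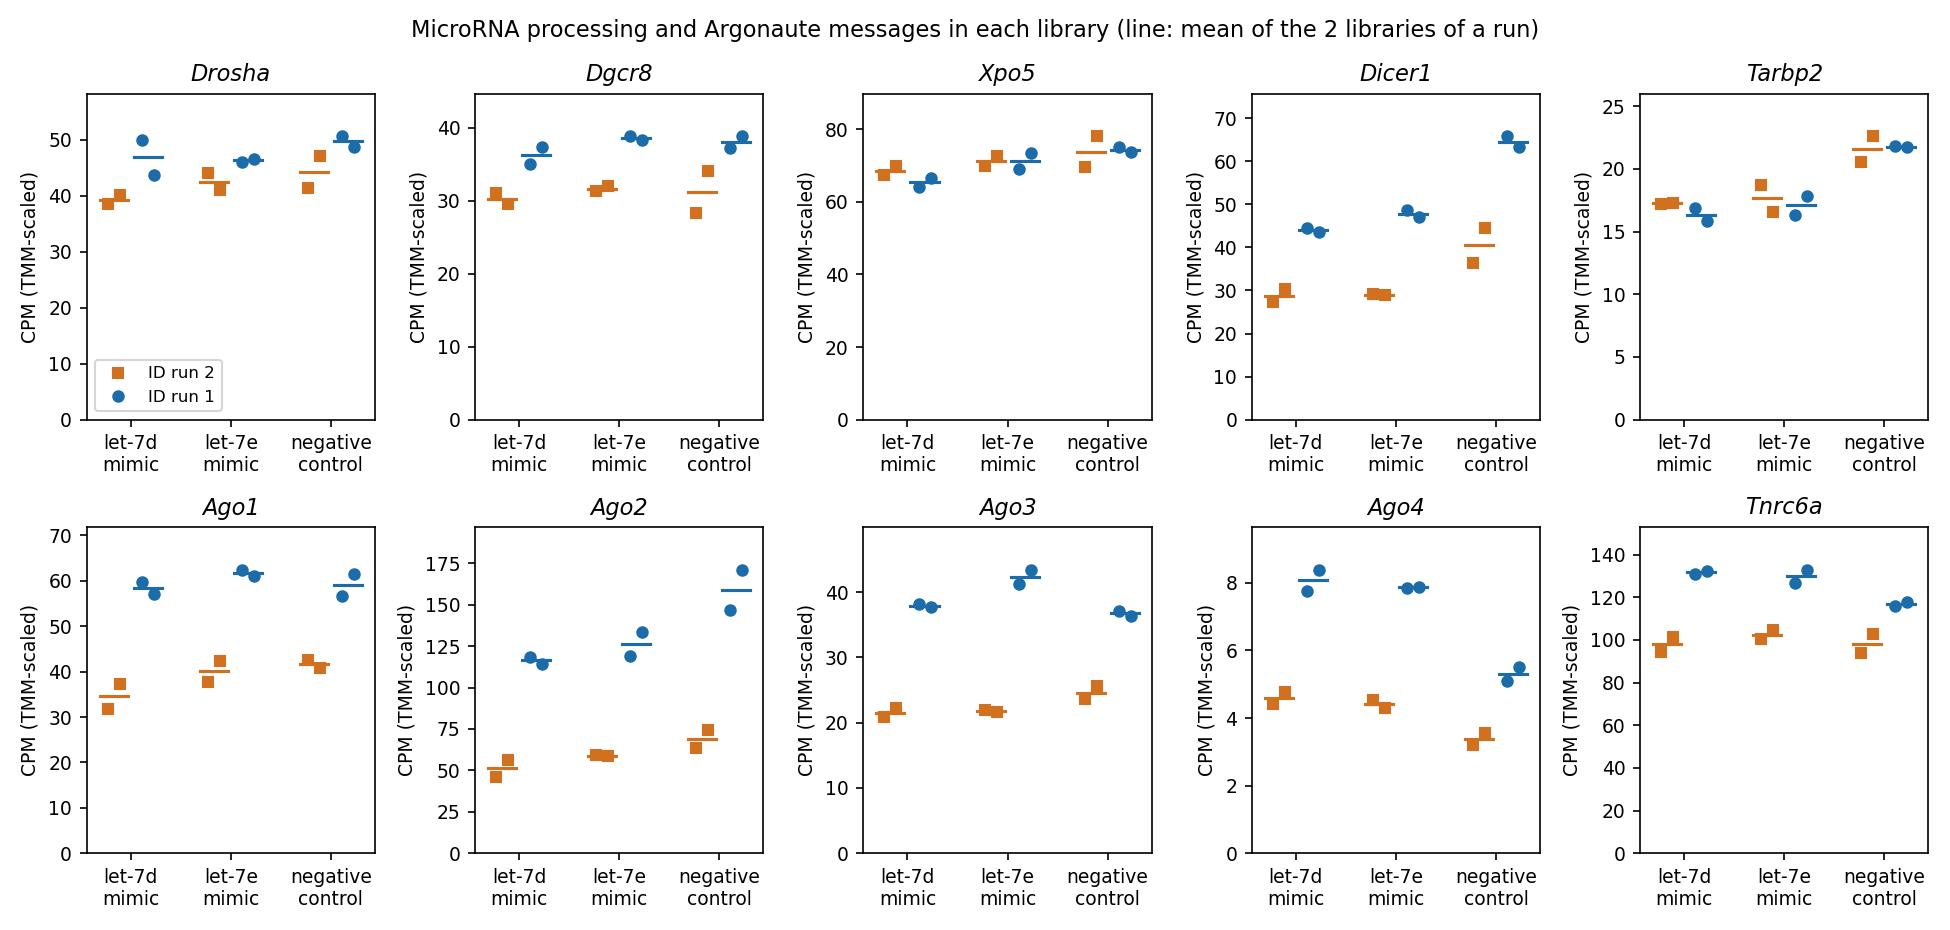
TMM-scaled CPM (linear axis from 0) of the 10 messages in each of the 12 libraries, by group, with squares for ID run 2, circles for ID run 1 and a line at the mean of the 2 libraries of a run. Dicer1, Tarbp2 and Ago2 lie lower and Ago4 higher in mimic libraries than in control libraries of the same run, and most genes lie lower in ID run 2.

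The nuclear cut came first in the pathway and was not called with either mimic. Drosha, the Microprocessor's RNase III enzyme (chr15:12824815-12935291, GRCm38, plus strand), averaged 43.1 ± 5.06 CPM with let-7d, 44.4 ± 2.58 CPM with let-7e and 47.0 ± 4.02 CPM in control cells (SD, n = 4 each, both runs together). Its log2 fold change was -0.13 ± 0.059 with let-7d (SE, edgeR adjusted p = 0.142) and -0.08 ± 0.058 with let-7e (adjusted p = 0.477). Mimic and control libraries of Drosha overlapped in ID run 2 with let-7e and in ID run 1 with let-7d. Dgcr8, which binds the primary hairpin (chr16:18253948-18289246, minus strand), averaged 33.3 ± 3.60 CPM with let-7d, 35.1 ± 4.04 CPM with let-7e and 34.6 ± 4.68 CPM in control cells (SD, n = 4 each, both runs together). It stood at -0.05 ± 0.060 with let-7d and 0.02 ± 0.060 with let-7e (SE, edgeR adjusted p = 0.604 and 0.873). Dgcr8 shares 825 exonic bases with Trmt2a on the other strand, and the strand setting of the counting is not given in the sources used here, so reads of the 2 genes may mix. Trmt2a itself stood at -0.06 with let-7d and 0.03 with let-7e, neither called. Dgcr8 also shares 327 exonic bases with Gm49776 on the same strand, where strand cannot tell reads apart. Gm49776 is not in the count table.

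Export stood close to the threshold with let-7d. Xpo5, exportin 5, carries the hairpin out of the nucleus (chr17:46202782-46243598, plus strand). Libraries of ID run 2 held 67.3 and 69.8 CPM with let-7d, 69.8 and 72.6 CPM with let-7e and 69.6 and 78.1 CPM in control cells. Libraries of ID run 1 held 64.1 and 66.7 CPM with let-7d, 68.9 and 73.5 CPM with let-7e and 75.2 and 73.7 CPM in control cells. Only in ID run 1 did the mimic libraries lie clear of the controls. The log2 fold change was -0.15 ± 0.050 with let-7d (SE, edgeR adjusted p = 0.0550) and -0.06 ± 0.050 with let-7e (adjusted p = 0.546). With let-7d it was called once control replicate 3 was left out (edgeR adjusted p = 0.0201) and by DESeq2 (adjusted p = 0.0325). Of the alternative fits, 4 called it with let-7d and 14 did not, limma-voom among the latter (adjusted p = 0.0664).

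Both partners of the cytoplasmic cut fell with either mimic. Dicer1, the RNase III enzyme that releases the duplex from the hairpin (ENSMUSG00000041415.10, chr12:104687742-104751952, minus strand), had 27.2 and 30.3 CPM with let-7d in ID run 2, 29.1 and 29.0 CPM with let-7e and 36.5 and 44.5 CPM in control cells. The ID run 1 libraries had 44.5 and 43.6 CPM with let-7d, 48.8 and 47.0 CPM with let-7e and 65.9 and 63.3 CPM in control cells. Every mimic library was thus below both control libraries of its run. Dicer1 fell by 30.4% with let-7d, a log2 fold change of -0.52 ± 0.062 (SE, edgeR adjusted p = 1.22e-05), and with let-7e fell by 27.0%, -0.45 ± 0.061 (adjusted p = 7.27e-05). Each run alone gave a call as well. With let-7d the log2 fold change was -0.48 in ID run 2 (edgeR adjusted p = 0.0214) and -0.55 in ID run 1 (adjusted p = 6.56e-05), and with let-7e it was -0.48 in ID run 2 (adjusted p = 0.0373) and -0.42 in ID run 1 (adjusted p = 0.000653).

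Tarbp2, the double-stranded RNA-binding partner of Dicer1 (ENSMUSG00000023051.11, chr15:102518192-102523676, plus strand), had 17.2 and 17.3 CPM with let-7d in ID run 2, 18.7 and 16.6 CPM with let-7e and 20.6 and 22.6 CPM in control cells. The ID run 1 libraries had 16.9 and 15.8 CPM with let-7d, 16.4 and 17.8 CPM with let-7e and 21.8 and 21.8 CPM in control cells. Its level thus lay in the same range in both runs, and all 8 mimic libraries were below all 4 control libraries. Tarbp2 fell by 22.5% with let-7d, a log2 fold change of -0.37 ± 0.067 (SE, edgeR adjusted p = 0.000858), and with let-7e fell by 19.8%, -0.32 ± 0.066 (adjusted p = 0.00422). In ID run 2 alone the values were -0.31 with let-7d and -0.29 with let-7e, and neither was called (edgeR adjusted p = 0.105 and 0.225).

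Among the Argonautes, Ago2 fell and Ago4 rose with either mimic, and Ago1 and Ago3 were not called. Ago2, the Argonaute that can cut a fully paired target (ENSMUSG00000036698.11, chr15:73095844-73184935, minus strand), had 46.2 and 56.1 CPM with let-7d in ID run 2, 59.0 and 58.7 CPM with let-7e and 63.8 and 74.7 CPM in control cells. Levels in ID run 1 were 119 and 114 CPM with let-7d, 119 and 134 CPM with let-7e and 147 and 171 CPM in control cells. The mimic libraries lay below the controls in each run, and the runs lay further apart than the groups. Ago2 fell by 26.4% with let-7d, a log2 fold change of -0.44 ± 0.068 (SE, edgeR adjusted p = 0.000211), and with let-7e fell by 17.8%, -0.28 ± 0.068 (adjusted p = 0.0119). The let-7e call was lost without let-7e replicate 1 (log2 fold change -0.24, edgeR adjusted p = 0.0611) and in ID run 2 alone (-0.23, adjusted p = 0.343). Ago2 shares 219 exonic bases with Chrac1 on the other strand, which was not called with either mimic (-0.0045 with let-7d and -0.11 with let-7e).

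Ago4 (ENSMUSG00000042500.11, chr4:126489541-126533472, minus strand) encodes an Argonaute that does not cut its targets, and its message was the least abundant of the 10, at 79 to 197 counts per library. Levels in ID run 2 were 4.42 and 4.77 CPM with let-7d, 4.53 and 4.29 CPM with let-7e and 3.20 and 3.56 CPM in control cells. Levels in ID run 1 were 7.76 and 8.39 CPM with let-7d, 7.86 and 7.89 CPM with let-7e and 5.10 and 5.49 CPM in control cells. Every mimic library was above both control libraries of its run. Ago4 rose by 44.9% with let-7d, a log2 fold change of 0.54 ± 0.107 (SE, edgeR adjusted p = 0.00180), and by 40.1% with let-7e, 0.49 ± 0.105 (adjusted p = 0.00552). ID run 2 alone gave no call, with 0.46 for let-7d (edgeR adjusted p = 0.152) and 0.39 for let-7e (adjusted p = 0.367), while ID run 1 alone gave 0.63 for let-7d (adjusted p = 0.00880) and 0.59 for let-7e (adjusted p = 0.0148), both called.

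Ago1, an Argonaute that carries microRNAs (chr4:126435012-126468583, minus strand), had 31.8 and 37.4 CPM with let-7d in ID run 2, 37.8 and 42.3 CPM with let-7e and 42.7 and 40.9 CPM in control cells. Levels in ID run 1 were 59.8 and 57.1 CPM with let-7d, 62.5 and 61.1 CPM with let-7e and 56.7 and 61.6 CPM in control cells, with the groups overlapping. Its log2 fold change was -0.14 ± 0.065 with let-7d and 0.0001 ± 0.064 with let-7e (SE, edgeR adjusted p = 0.145 and 0.999). Ago3, likewise a carrier of microRNAs (chr4:126331704-126429556, minus strand), had 20.8 and 22.3 CPM with let-7d in ID run 2, 22.0 and 21.7 CPM with let-7e and 23.6 and 25.6 CPM in control cells. Its ID run 1 levels were 38.1 and 37.7 CPM with let-7d, 41.2 and 43.5 CPM with let-7e and 37.2 and 36.3 CPM in control cells. For Ago3 the mimic libraries thus lay below the controls in ID run 2 and above them in ID run 1. Its log2 fold change over both runs was -0.07 ± 0.070 with let-7d and 0.02 ± 0.069 with let-7e (SE, edgeR adjusted p = 0.523 and 0.909).

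Ago1, Ago3 and Ago4 are neighbours on mouse chromosome 4, and Ago2 lies on chromosome 15. The annotated protein-coding transcripts of the 4 were cut into windows of 75 bases at every start position, so that neighbouring windows overlap. Ago1 and Ago3 share 96 such windows, which are 1.33% of those of Ago1 and 0.606% of those of Ago3. Ago2 and Ago4 share none with the other Argonautes. Reads could be split between copies over those windows. Shorter or inexact matches and copies elsewhere in the genome were not searched.

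The 4 Argonaute messages were also summed per length. Per kilobase of merged exons, the sum of the 4 in ID run 2 was 9.10 and 10.6 CPM per kb with let-7d, 10.8 and 11.3 CPM per kb with let-7e and 11.7 and 12.4 CPM per kb in control cells. The sum in ID run 1 was 19.3 and 18.7 CPM per kb with let-7d, 19.8 and 20.8 CPM per kb with let-7e and 20.4 and 22.8 CPM per kb in control cells. The sum was thus lower in every mimic library than in the control libraries of its run, except that let-7e replicate 2 lay between the ID run 1 controls.

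Of that sum, Ago2 made up 36.2% and 37.6% with let-7d in ID run 2, 38.8% and 37.0% with let-7e and 38.9% and 42.9% in control cells. Its share in ID run 1 was 44.0% and 43.7% with let-7d, 42.9% and 45.8% with let-7e and 51.3% and 53.6% in control cells. In ID run 2 the highest let-7e share lay just under the lowest control share, while in ID run 1 the groups lay well apart. The share of Ago4 was 7.00% and 6.46% with let-7d in ID run 2, 6.02% and 5.46% with let-7e and 3.94% and 4.13% in control cells. In ID run 1 it was 5.80% and 6.47% with let-7d, 5.71% and 5.45% with let-7e and 3.59% and 3.47% in control cells. These shares restate the values above as proportions and were not tested.

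Tnrc6a, the GW182 protein that Argonaute binds to silence a message (chr7:123123885-123195296, plus strand), was not called. It had 94.3 and 102 CPM with let-7d in ID run 2, 100.3 and 105 CPM with let-7e and 93.8 and 103 CPM in control cells. Its ID run 1 levels were 131 and 133 CPM with let-7d, 127 and 133 CPM with let-7e and 116 and 118 CPM in control cells. The mimic libraries were above the controls in ID run 1, and the groups overlapped in ID run 2. The log2 fold change was 0.08 ± 0.051 with let-7d and 0.11 ± 0.051 with let-7e (SE, edgeR adjusted p = 0.296 and 0.227). Tnrc6a shares 143 exonic bases on the same strand with Gm45846, which is not in the count table. Of its paralogs, Tnrc6c was called lower with let-7d (-0.24 ± 0.069, SE, edgeR adjusted p = 0.0208) and stood at -0.17 ± 0.068 with let-7e (adjusted p = 0.123). Tnrc6b stood at -0.06 ± 0.068 with let-7d and -0.02 ± 0.068 with let-7e (SE, edgeR adjusted p = 0.604 and 0.890).

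**Figure D2:**
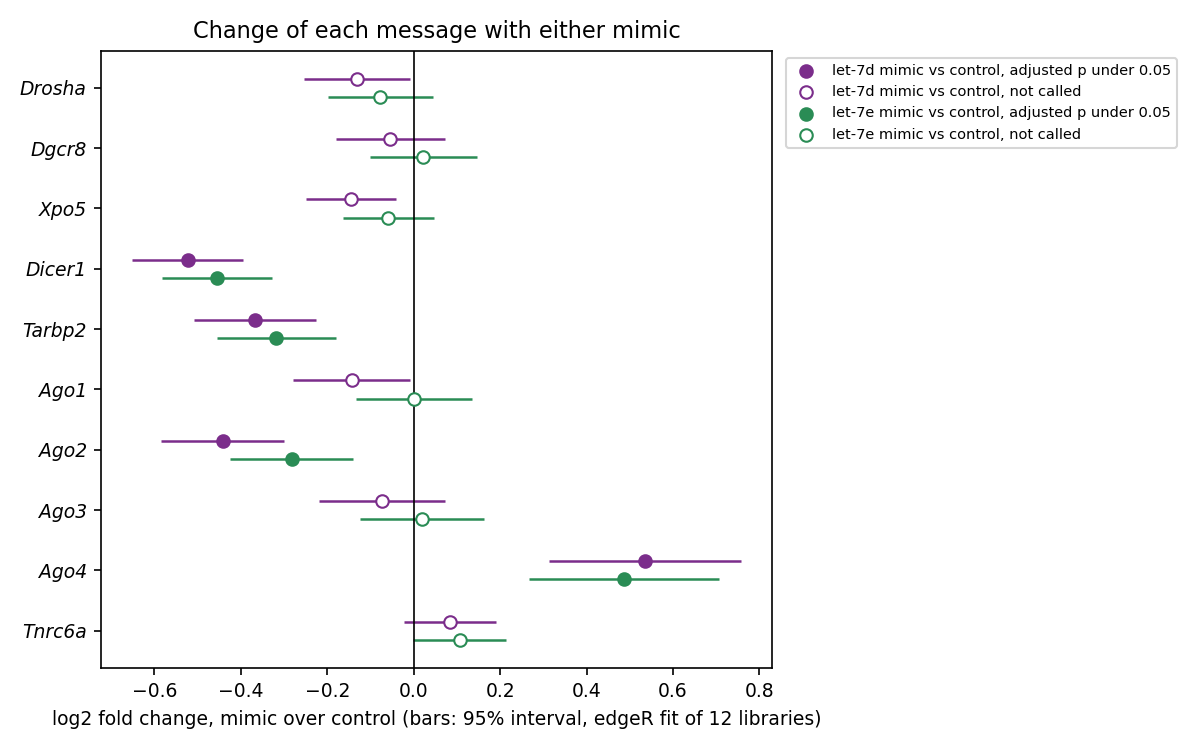
Log2 fold change of each message, let-7d mimic over control (purple) above let-7e mimic over control (green), with 95% intervals from the edgeR fit of 12 libraries; filled points have an adjusted p under 0.05. Dicer1, Tarbp2 and Ago2 are filled below 0 and Ago4 is filled above 0 for both mimics.

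These mimic comparisons rest on the term for ID run. Without it the spread between the runs enters the error, and 0 of the 10 genes was called with either mimic by edgeR. Of the 7 measured adipocyte markers, Lpl was called higher with let-7d (0.21) and let-7e (0.26) on the log2 scale, and none was called lower. Their median was -0.12 with let-7d and -0.06 with let-7e. Their summed levels overlapped with those of the control libraries in both runs. Markers of other cell types also moved with the mimics. Of the 5 smooth muscle markers, 4 were called lower with let-7d and 2 with let-7e, and their summed level in ID run 2 was 5068 to 5552 CPM with let-7d, 5373 to 5509 CPM with let-7e and 6429 to 6739 CPM in control cells. The ID run 1 sums were 2860 to 2972 CPM with let-7d, 2619 to 2893 CPM with let-7e and 3149 to 4191 CPM in control cells. Of the 5 preadipocyte markers, Pdgfra and Dpp4 were called higher with both mimics, and the summed level in ID run 2 was 1161 to 1384 CPM with let-7d, 1112 to 1215 CPM with let-7e and 817 to 1160 CPM in control cells. The ID run 1 sums were 823 to 903 CPM with let-7d, 861 to 874 CPM with let-7e and 641 to 649 CPM in control cells. No marker of either list was at 0 in any library. None of the 8 macrophage markers was called by edgeR with either mimic (2 at an unadjusted p under 0.05 with let-7d, 0 with let-7e), with a median log2 fold change of 0.39 with let-7d and 0.16 with let-7e. Their summed level in ID run 2 was higher in every mimic library than in the controls, at 57.7 to 123 CPM with let-7d, 41.7 to 63.9 CPM with let-7e and 24.5 to 33.3 CPM in control cells. For ID run 1 the sums were 235 to 249 CPM with let-7d, 181 to 266 CPM with let-7e and 224 to 229 CPM in control cells. The part of these cells in the changes of the 10 genes was not tested.

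The 2 mimics were then set against each other. None of the 10 genes differed between let-7d and let-7e by edgeR at the adjusted threshold, beside 0.178% of all genes. At an unadjusted p under 0.05 there were 2, Ago1 and Ago2, and DESeq2 and limma-voom called 0 as well. The log2 difference of Ago2, let-7d over let-7e, was -0.16 (95% interval -0.30 to -0.02, edgeR adjusted p = 0.496). For Ago1 the difference was -0.14 (95% interval -0.28 to -0.0089, adjusted p = 0.508). Dicer1 differed by -0.07 (95% interval -0.20 to 0.06), Tarbp2 by -0.05 (-0.19 to 0.09) and Ago4 by 0.05 (-0.16 to 0.26). A p that misses the threshold does not show that the mimics act alike, and these intervals give the differences that the 12 libraries allow. Ago1, Ago2 and Dgcr8 were lower in every let-7d library than in every let-7e library of the same run, which held for 7.5% of all genes, and none was higher in this way (5.36% of all genes).

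The 10 messages were searched for matches to the seed shared by both mimics. For each gene the 3′ UTR came from the annotated transcript with the longest 3′ UTR. The coding sequence came from the transcript with the longest coding sequence. Both were searched on the transcript's own strand for CTACCTCA (8mer), CTACCTC (7mer-m8), TACCTCA (7mer-A1) and TACCTC (6mer). Each site was counted under the longest of these it holds. A match of 7 or 8 letters was present in the 3′ UTR of 6 of the 10 genes, beside 17.0% of the 13547 tested genes with an annotated 3′ UTR, and in the coding sequence of 5 of the 10, beside 20.7%. The lengths searched differ widely, from a 3′ UTR of 169 bases in Drosha to 12742 bases in Ago3. Drosha and Dgcr8 held no match of any kind in either region.

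Dicer1 had no 7mer or 8mer in its 3′ UTR of 3851 bases and had 5 in its coding sequence of 5718 bases, of which 3 were 8mers. Among the 467 genes whose coding sequence has a length within 20% of this, 53.1% held at least 1 such match and 0.214% held at least 5. Dicer1 is itself among the 467 and is the only gene behind the 0.214%. Over all 13547 genes, 0.0443% held 3 or more coding 8mers (6 genes, Dicer1 among them). The coding matches are printed because Dicer1 holds the most 8mers of the 10 genes, with the matched letters in capitals and 14 or 15 bases before them, all exonic in GRCm38 and on the minus strand.
Dicer1 coding 7mer-A1, chr12:104706854-104706875: tgacagccaaacccaTACCTCA
Dicer1 coding 7mer-m8, chr12:104706559-104706580: cagcctactgtgttCTACCTCt
Dicer1 coding 8mer, chr12:104702804-104702825: acctgtacaaccaaCTACCTCA
Dicer1 coding 8mer, chr12:104702696-104702717: gaacgctaacacatCTACCTCA
Dicer1 coding 8mer, chr12:104694696-104694717: gatgcgattttggaCTACCTCA
A 3′ UTR match of 7 or 8 letters was held by 4.63% of the 994 genes with a 3′ UTR about as long as that of Tarbp2. For the 2891 genes with a coding sequence of similar length the share was 13.9%, with Tarbp2 itself counted in both. Tarbp2, the other dicing gene that fell, held a 7mer-m8 in its 3′ UTR of 334 bases and a 7mer-A1 near the end of its coding sequence, both on the plus strand.
Tarbp2 3′ UTR 7mer-m8, chr15:102523430-102523451: cagaggtgccatctCTACCTCt
Tarbp2 coding 7mer-A1, chr15:102523298-102523319: caccgcgccctacagTACCTCA

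Ago2, which fell, held 4 matches of 7 or 8 letters in its 3′ UTR of 11064 bases, among them 1 8mer. Of the 51 genes with a 3′ UTR of similar length, Ago2 itself among them, 80.4% held at least 1 and 5.88% at least 4. Ago4, which rose, held a 7mer-A1 in its 3′ UTR of 3682 bases. At least 1 match was held by 32.9% of the 1385 genes with a 3′ UTR of similar length, Ago4 itself among them. Ago3, not called with either mimic, held 3 matches in the longest 3′ UTR of the set, among them 1 8mer, and 2 in its coding sequence. Of the 28 genes with a 3′ UTR of similar length to that of Ago3, Ago3 itself among them, 25% held at least 3. The 8mers of Ago2 and Ago3 and the match of Ago4 are shown because their genes differ in response; all are 3′ UTR sites on the minus strand.
Ago2 3′ UTR 8mer, chr15:73097982-73098003: tttacaatgtggatCTACCTCA
Ago3 3′ UTR 8mer, chr4:126335040-126335061: gcacctgccctcacCTACCTCA
Ago4 3′ UTR 7mer-A1, chr4:126492990-126493011: actgggcagaattttTACCTCA
Xpo5, not called in the edgeR fit of 12 libraries, held 3 coding matches and none in its 3′ UTR. Of the 1227 genes with a coding sequence of similar length to that of Xpo5, Xpo5 itself among them, 1.30% held at least 3. Ago1 and Tnrc6a held 1 each in the 3′ UTR, and Tnrc6a held 1 in its coding sequence. A match is a description of the letters and not a measured site of pairing.

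**Figure D3:**
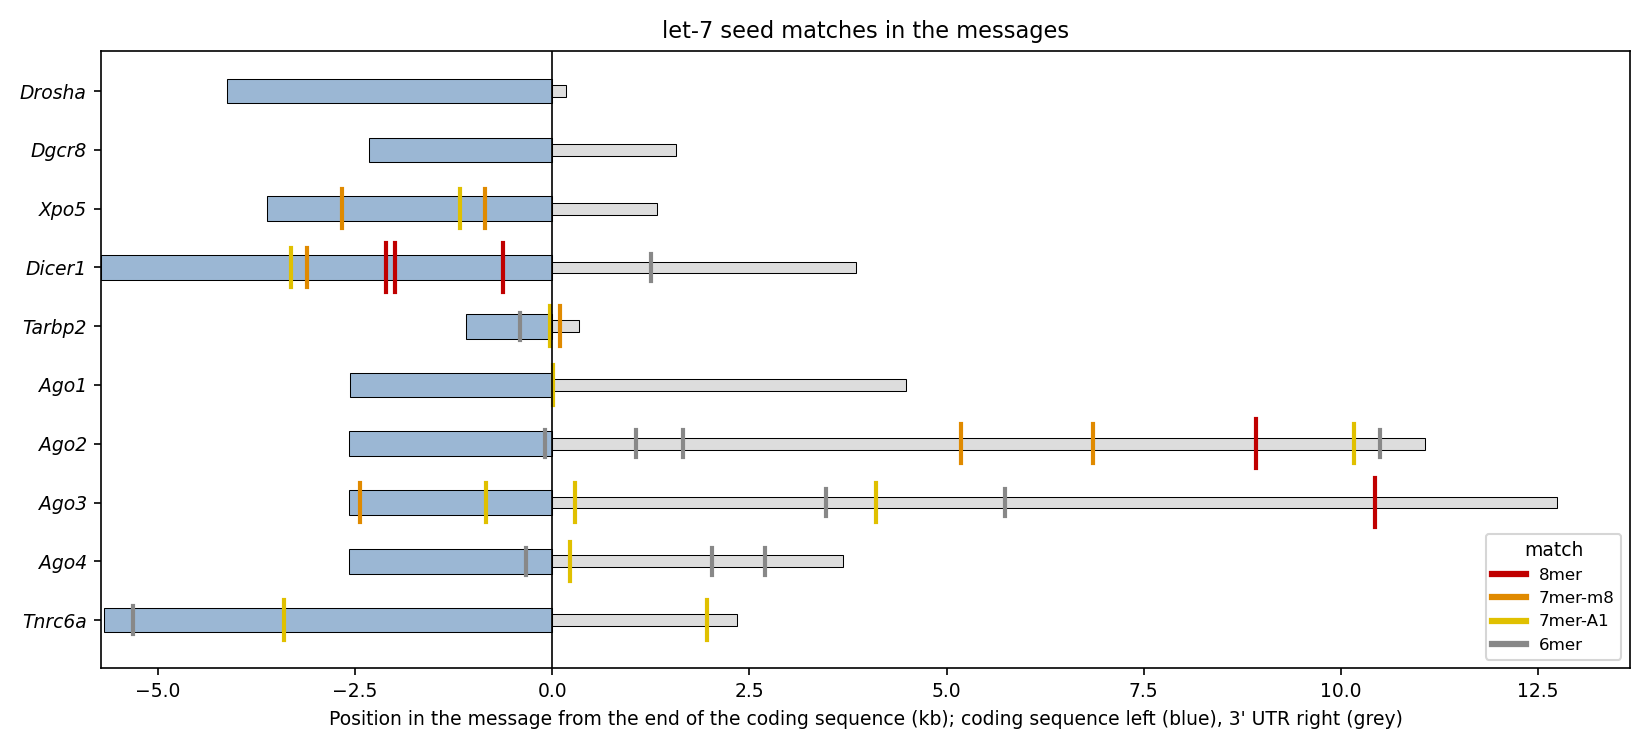
Map of let-7 seed matches in the 10 messages to scale, in kilobases from the end of the coding sequence, with the coding sequence in blue to the left and the 3′ UTR in grey to the right; marks are coloured by length of match. The 8mers lie in the coding sequence of Dicer1 and far down the 3′ UTRs of Ago2 and Ago3.

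For scale, the median log2 fold change with let-7d over all tested genes with a 3′ UTR match of 7 or 8 letters was -0.07 (2302 genes, 22.0% called lower), with a coding match alone -0.05 (2254 genes, 16.3% called lower) and with neither 0.02 (8991 genes, 6.75% called lower). With let-7e the medians were -0.05, -0.04 and 0.01, and 13.7%, 9.27% and 3.87% of the same classes were called lower. Of the 15 genes with at least as many coding matches as Dicer1, Dicer1 itself among them, 2 were called lower with let-7d and 1 with let-7e, and the medians were 0.01 and -0.09. Dicer1 itself stood at -0.52 with let-7d and -0.45 with let-7e. Genes are not independent replicates, and no test was made between classes.

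The levels of the genes were set in order per length, as mean CPM per kb of merged exons over all 12 libraries, where the median of all genes was 4.03 CPM per kb. Xpo5 stood highest at 10.3 CPM per kb, followed by Tnrc6a at 8.88, Drosha at 7.55, Ago2 at 6.91, Ago1 at 6.07, Dgcr8 at 4.46, Tarbp2 at 4.09, Dicer1 at 2.53, Ago3 at 1.86 and Ago4 at 0.807 CPM per kb. That places Xpo5 at the 71.3 percentile and Ago4 at the 22.4 percentile of 15742 genes. Merged exons count every annotated isoform, so a gene with long alternative exons, such as Dicer1 with 16750 bases, appears lower than its main message would. In control cells of ID run 2 the order was Xpo5, Tnrc6a, Drosha, Ago1, Ago2, Tarbp2, Dgcr8, Dicer1, Ago3 and Ago4, and the control libraries of Tnrc6a and Drosha, of Ago1 and Ago2 and of Ago2 and Tarbp2 overlapped. In control cells of ID run 1 Ago2 led at 11.3 CPM per kb, overlapping with Xpo5 at 10.8 CPM per kb, and no other neighbours overlapped.

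The levels in the 2 runs were then compared. In ID run 2, 8 of the 10 messages were lower than in ID run 1 and none was higher, beside 81.5% of all genes called (39.9% lower and 41.6% higher). The 4 Argonautes and Dicer1 had the largest differences of the 10. Ago2 was -1.16 ± 0.056 on the log2 scale, Ago3 -0.79 ± 0.057, Ago4 -0.77 ± 0.085, Dicer1 -0.67 ± 0.050 and Ago1 -0.63 ± 0.053 (SE, ID run 2 over ID run 1, edgeR, each called). Tnrc6a stood at -0.34 ± 0.042, Dgcr8 at -0.28 ± 0.049 and Drosha at -0.18 ± 0.048 (SE, edgeR adjusted p = 0.00178 for Drosha), and Drosha was not called in the control libraries alone (adjusted p = 0.124). Tarbp2 at 0.04 ± 0.055 and Xpo5 at 0.02 ± 0.041 were not called (SE, edgeR adjusted p = 0.519 and 0.677). The median of the 10 genes was -0.48, against 0.03 over all genes. Chrac1, which overlaps Ago2 on the other strand, was higher in ID run 2, at 0.73 on the log2 scale.

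Marker messages of several cell types moved with the runs. All 7 measured adipocyte markers were lower in ID run 2, with the sums given above. The 8 macrophage markers summed to 24.5 to 123 CPM in ID run 2 and 181 to 266 CPM in ID run 1, with 1 marker at 0 in a control library of ID run 2. The 5 smooth muscle markers summed to 5068 to 6739 CPM in ID run 2 and 2619 to 4191 CPM in ID run 1. By edgeR 4 of them were called higher in ID run 2, while Myh11 was called lower at -0.29 on the log2 scale. The 5 preadipocyte markers summed to 817 to 1384 CPM in ID run 2 and 641 to 903 CPM in ID run 1. Of these, 4 were likewise called higher in ID run 2, while Pdgfra was called lower at -0.18 on the log2 scale. The part of these cell types in the lower Argonaute and Dicer1 messages was not tested. What the labels leave unsaid about the runs cannot be told apart from it.

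Whether a mimic acted differently in the 2 runs was tested as an interaction. None of the 10 genes was called by edgeR for let-7d (0.336% of all genes called, 0.235% lower and 0.102% higher) or for let-7e (0.0381% called, 0.019% lower and 0.019% higher), and DESeq2 called 0 of them. At an unadjusted p under 0.05 there was 1 gene for each, Ago1 for let-7d and Ago3 for let-7e. For Ago3 the let-7e response in ID run 2 minus that in ID run 1 was -0.37 on the log2 scale (95% interval -0.60 to -0.14, edgeR adjusted p = 0.286). In ID run 2 alone Ago3 stood at -0.17 ± 0.093 and in ID run 1 alone at 0.21 ± 0.070 with let-7e (SE, edgeR adjusted p = 0.481 and 0.0667). For Ago1 the let-7d response differed by -0.26 ± 0.12 between the runs (SE, edgeR adjusted p = 0.361). For Dicer1 the differences were 0.06 with let-7d (95% interval -0.20 to 0.32) and -0.05 with let-7e (-0.30 to 0.21).

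**Figure D4:**
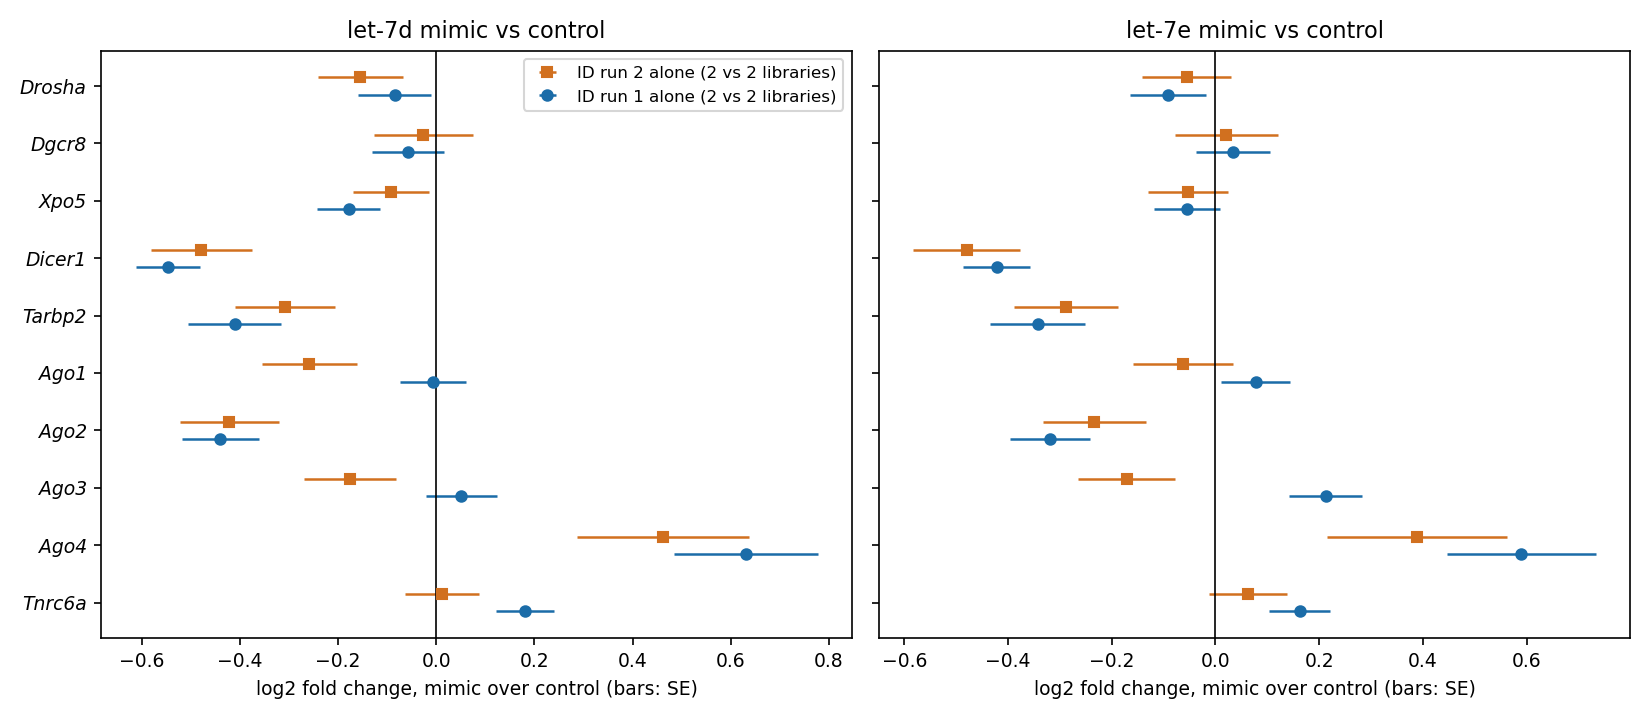
Log2 fold change of each message within ID run 2 alone (squares) and ID run 1 alone (circles), mimic over control, with bars for the SE of each edgeR fit of 2 against 2 libraries. Dicer1, Tarbp2 and Ago2 lie below 0 and Ago4 above 0 in both runs for both mimics, while Ago3 lies on opposite sides of 0 in the 2 runs.

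Of the wider pathway, 83 of 86 listed genes in 8 lists were in the table. With let-7d, 5 were called higher and 11 lower, with a median of -0.05, beside the 6.35% and 9.84% of all genes called each way. With let-7e, 4 were called higher and 2 lower, with a median of 0.0019, beside 3.77% and 5.85%. Both comparisons use the same control libraries.

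The lists for steps up to Argonaute loading stand beside 16.2% of all genes called with let-7d and 9.62% with let-7e. Among 10 cofactors of the nuclear cut, Hnrnpa1, which binds certain primary hairpins, was lower with let-7d (-0.17 ± 0.057, SE, edgeR adjusted p = 0.0439) and none was called with let-7e. None of the 8 export and dicing cofactors was called with either mimic. Of the let-7 precursor control genes, 7 of 10 were in the table, and Tent2, a terminal nucleotidyltransferase that adds bases to RNA 3′ ends, fell with let-7d (-0.43 ± 0.054, SE, edgeR adjusted p = 1.91e-05) and with let-7e (-0.35 ± 0.053, adjusted p = 0.000264). Lin28a, Lin28b and Trim71 were not analysed here. Of 10 Argonaute loading chaperones, Hspa4, an Hsp110-family chaperone, was lower with let-7d (-0.19 ± 0.049, SE, edgeR adjusted p = 0.0109) and none was called with let-7e.

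Downstream of Argonaute the called genes went both ways. The lists given from here on stand beside the same shares, 16.2% of all genes called with let-7d and 9.62% with let-7e. Of 13 GW182 paralogs and P-body scaffolds, 1 was higher and 2 were lower with let-7d, and 1 was higher with let-7e. Lsm14a, a P-body protein, rose with let-7d (0.27 ± 0.047, SE, edgeR adjusted p = 0.000451) and with let-7e (0.35 ± 0.046, adjusted p = 7.20e-05). Mov10, an RNA helicase that binds Argonaute, was lower with let-7d (-0.34 ± 0.089, SE, edgeR adjusted p = 0.0163) and stood at -0.18 with let-7e (adjusted p = 0.248).

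Of 16 deadenylation genes, 1 was higher and 3 were lower with let-7d, and 1 was higher and 1 lower with let-7e. Btg2, which binds the CCR4-NOT deadenylase, fell with let-7d (-0.47 ± 0.066, SE, edgeR adjusted p = 7.23e-05) and with let-7e (-0.49 ± 0.066, adjusted p = 7.20e-05). Cnot6l, a catalytic subunit of that complex, rose by 0.31 with let-7d and 0.32 with let-7e on the log2 scale. Cnot11, another subunit, was called lower with let-7d at -0.28.

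Of 10 decapping and decay genes, 1 was higher and 3 were lower with let-7d, and 1 was higher with let-7e. Dcp2, the decapping enzyme, rose by 0.24 with let-7d and 0.22 with let-7e on the log2 scale, while Xrn1, the 5′ to 3′ exonuclease, was called lower with let-7d at -0.18, as was Exosc10, a nuclease of the exosome, at -0.17. Of 9 genes of Argonaute and microRNA turnover, 2 were higher with let-7d and 1 with let-7e. Tsn, translin, a subunit of the nuclease C3PO, rose with let-7d (0.30 ± 0.046, SE, edgeR adjusted p = 0.000169) and with let-7e (0.33 ± 0.046, adjusted p = 0.000109), and Nt5c3, a nucleotidase, was called higher with let-7d at 0.20.

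**Figure D5:**
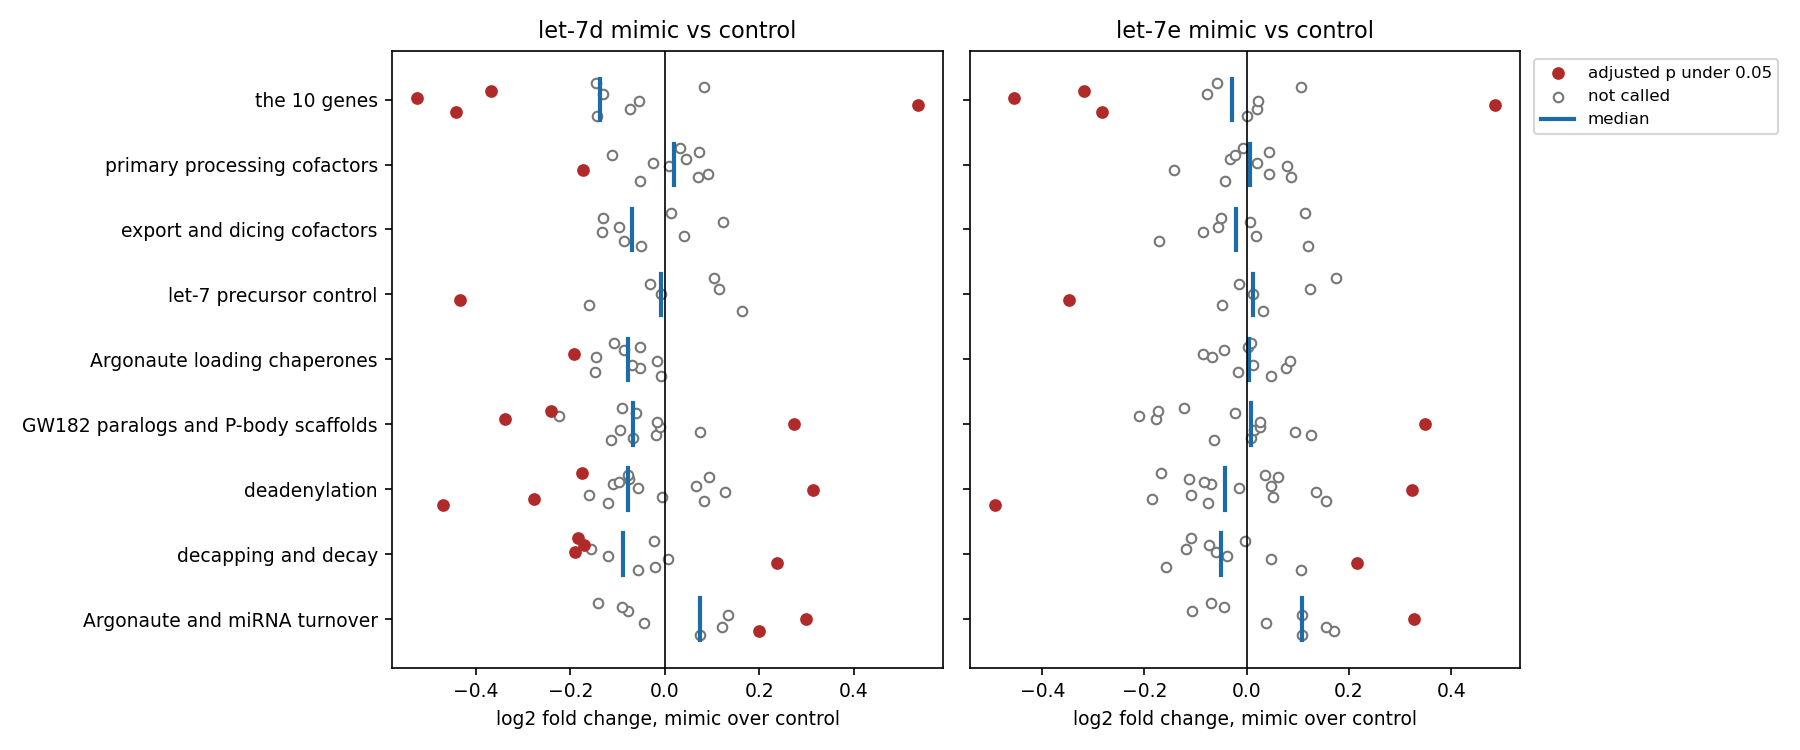
Log2 fold change of the 10 genes and of the 83 measured genes of the 8 pathway lists, let-7d mimic over control (left) and let-7e mimic over control (right), with filled points for an adjusted p under 0.05 and a bar at each median. With let-7d, Dicer1 at -0.52 and Ago4 at 0.54 are the points furthest from 0 on either side.

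Between the runs 40 of the 83 pathway genes were higher and 32 lower in ID run 2, beside 41.6% of all genes higher and 39.9% lower. Of the 10 chaperones that load Argonaute, 9 were higher and 1 was lower in ID run 2. The Tnrc6a paralogs Tnrc6b and Tnrc6c were lower in ID run 2 by log2 differences of -1.89 ± 0.057 and -0.93 ± 0.056 (SE, edgeR, both called).

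Genes with a pattern like that of Dicer1 and Ago2 were sought as the smallest root mean square difference of gene-centred log2 CPM over the 12 libraries, among 11344 genes. Nearest to Dicer1 were Traf4 (0.077), an adaptor of receptor signalling, Cd276 (0.0829), a cell-surface protein of the B7 family, and Myo7a (0.0849), an unconventional myosin. Nearest to Ago2 was Cad (0.0648), the enzyme that starts pyrimidine synthesis. Since the runs differ most, the measure follows the run difference more than the mimics. Traf4 stood at -0.47 with let-7d and -0.37 with let-7e, beside -0.59 between the runs. Cad stood at -0.40 with let-7d and -0.21 with let-7e, beside -1.08 between the runs, on the log2 scale.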

How the data were processed

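The authors deposited whole-number read counts per Ensembl gene for each of the 12 libraries, with genes of low CPM removed, per the name of the deposited table. The submitters' processing notes name the aligner STAR and the build GRCm38.p6. STAR's version, how reads were counted, whether strand was used and what became of multi-mapping reads are not given. A second deposited table, named RPKM, was not used because its values could not be tied to the gene each line names.

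From the counts, 15736 of 15754 identifiers were matched to symbols of the GRCm38 annotation. Libraries were scaled by TMM and fitted with edgeR 4.0.16 (R 4.3.3; robust quasi-likelihood F test, filterByExpr removed no gene) to all 12 libraries with terms for group and ID run, leaving 8 residual degrees of freedom. The interaction of group and ID run left 6. The median SE of a log2 fold change was 0.085 with let-7d and 0.084 with let-7e. Alternatives were DESeq2 1.42.0, limma-voom (limma 3.58.1), other scalings, a low-count filter, other sample sets, a replicate block and leaving out each library. The fitting was tested on simulated data. Libraries sharing group and run differed by more than counting noise in every pair (chi-square per degree of freedom 2.31 to 9.92). Named were all 10 genes, from each list the 3 called genes with the smallest p, and for Dicer1 and Ago2 the 3 nearest genes whose average log2 CPM reached 2, of which some are not reported here. Likeness used a pseudocount of 0.5 CPM. The genes and lists were chosen with earlier results of these data known. Lymphocyte markers were not analysed here; sums of 5 endothelial markers (157 to 254 CPM) and 5 mesothelial markers (84.9 to 95.9 CPM) were also taken.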

Additional observations from a re-analysis of the deposited data

How the results depend on the processing

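The fold changes of Dicer1, Tarbp2, Ago2 and Ago4 against control kept their direction in every alternative run. Without the ID run term, 0 of the 10 genes was called with let-7d and 0 with let-7e, and of all genes 4 with let-7d and 0 with let-7e. In ID run 2 alone, 2 of the 10 were called with let-7d and 1 with let-7e, and of all genes 774 with let-7d and 215 with let-7e; in ID run 1 alone, with as many libraries, 4 of the 10 were called with either mimic, and all genes called came to 2293 for let-7d and 1642 for let-7e. What caused the lower counts in ID run 2 was not tested. Leaving out each library in turn gave 4 to 5 of the 10 and 1788 to 2563 of all genes with let-7d, and 3 to 4 and 876 to 1459 with let-7e, the lowest count being without let-7e replicate 1. Between let-7d and let-7e, all genes called numbered 28, against 122 by DESeq2, 1 without the ID run term, 137 from the 2 groups alone, 18 in ID run 1, 3 in ID run 2 and 3 to 29 without 1 library. For the interaction they numbered 53 for let-7d and 6 for let-7e, against 194 for let-7d and 52 for let-7e by DESeq2, and 4 to 233 for let-7d and 0 to 168 for let-7e without 1 library; the cause was not tested. With total counts in place of TMM, 1450 genes were higher and 1096 lower with let-7d, against 1000 and 1550, the median of all genes between the runs was 0.10 on the log2 scale, and Xpo5 was called between the runs at 0.09 (edgeR adjusted p = 0.0486). Xpo5 with let-7d was also called with DESeq2's size factors (edgeR adjusted p = 0.0395).

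The replicate numbers are shared by the groups, but the labels tie them to no animal or culture, and within a run deviations of same-numbered libraries correlated at -0.161 to 0.427, so they were not taken as pairs. With the replicate block, 5 of the 10 genes and 2574 of all genes were called with let-7d, 4 and 1511 with let-7e, and 0 and 22 between the mimics. The fifth gene with let-7d was Xpo5 (adjusted p = 0.0434). By deviations from group means, which keep the run difference, libraries correlated best with their own number in 15 of 24 cases. The runs dominate that measure, with same-numbered libraries at 0.917 to 0.966, so the count cannot tell pairs from runs. With 6mers counted, 7 of the 10 genes held a 3′ UTR match and 7 a coding match, against 6 and 5. Over the 13547 genes the shares with 6mers were 26.7% and 30.0%, against 17.0% and 20.7%. Depth limits Ago4 most, with 79 counts in its lowest library.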
